A study of Drosophila melanogaster with 6 samples.

Results

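The 300 probes examined here gave the brightest Cy3 signal among the 32162 probes of a *Drosophila* oligonucleotide array, where Cy3 labeled RNA from whole ovaries of wild-type (OreR) females. They were chosen by the median intensity of each spot minus that of its local background, averaged over the spots of a probe and then over the 6 arrays of the series, and they make up 0.933% of all probes. The Cy3 level of the members ran from 72502 down to 13021 scanner units with a median of 22102, against a median of 27 over all probes. The last member lay at 13021 and the first probe outside the set at 13017, so the border falls in a continuous series of levels. Brightness ranks probes, which differ in how well they bind, so a rank is not a count of transcripts.

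Each array carried Cy5-labeled RNA of 1 ovary preparation beside the Cy3 reference, which was the same pool of OreR ovary RNA throughout. In both groups the females had 1 copy of GAL80TS, a temperature-sensitive inhibitor of GAL4, and 1 copy of the driver GR1-GAL4. Opposite the driver, control females (n = 3 preparations) carried the balancer TM6B, and ectopic expression females (n = 3 preparations) carried UAS-Unpaired together with UAS-lambdatorpedo. Both groups were crossed at 18°C, were fed yeast for 2 days, came from females aged 5 to 8 days and spent 16 h at 29°C before dissection. The reference females were kept at 25°C and carried no driver, so the reference differs from both groups in genotype and in temperature. Unpaired is the ligand of the JAK/STAT pathway and lambdatorpedo an active form of the EGF receptor. GR1-GAL4 acts in follicle cells, whereas the RNA came from whole ovaries with germline, follicle cells and ovarian sheath, several pairs pooled in each preparation. The labels call the preparations biological replicates. The dyes were not swapped, and each of the 3 slides held 1 control and 1 ectopic expression array of the same number.

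An egg chamber is a cyst of germline cells enclosed by a follicular epithelium. The nurse cells of the germline make large stores of maternal RNA and pass them to the oocyte. The follicle cells pattern the chamber at mid-oogenesis and, in the late stages, secrete the proteins of the eggshell in large amounts. RNA that is abundant in a whole ovary can thus come from either source, and the arrays cannot separate fewer cells of a type from less RNA per cell.

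Members are given by the identifiers printed on the array, because the gene table used here, RefSeq for Release 6, pairs few of them with a symbol. Of the 300 members, 3 matched a gene, and over the whole array 502 probes did (1.56%). Among lists of chorion, vitelline membrane, yolk, translation, mitochondrial and chaperone genes, 0 had a named probe on the array, and the lists of ribosomal protein and germline genes had 4 and 1 named probes, of which 0 were members. The marker lists of follicle cells, muscle sheath, hemocytes, fat body and oviduct had 0 named probes, so the ovary label was not checked against marker genes. Of the members, 260 (86.7%) carried the identifier of an annotated FlyBase transcript, against 67.3% of all probes. Identifiers of EST clusters were fewer (3.00% against 14.4%), and those of RefSeq noncoding RNAs (3.00% against 0.852%) and cDNA clones (5.67% against 3.87%) were more frequent. Of the identifiers that the members stood for, 37 had between 2 and 5 member probes.

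The members were measured well above background on all 6 arrays in both channels, and 0 of them had a saturated spot. A spot of 9 members carried an outlier flag on some array, and 5 members were left without a value on 1 or 2 arrays. Between 287 and 291 of the members were among the 300 brightest Cy3 probes of any single array. The mean of the same arrays chose the members, so this overlap is in part built in. Over the 6 arrays the SD of the members' log2 Cy3 level had a median of 0.11, and it exceeded 0.5 for 3 members. The 300 members carried 31.9 to 34.4% of all Cy3 signal. In the sample channel they carried 34.4 to 36.8% of the Cy5 signal on the control arrays and 37.0 to 37.9% on the ectopic expression arrays.

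Most of the brightest probes of wild-type ovaries were bright in both genotypes as well. By mean Cy5 level, 276 of the 300 members were among the 300 brightest probes of control ovaries and 251 were among those of ectopic expression ovaries, with 246 in both. Widening the count to the 1000 brightest Cy5 probes took in 299 members in control and 288 in ectopic expression ovaries. On the scale of the deposited log2 ratio of sample over reference, 294 members lay within 2-fold of the reference in control ovaries, 5 lay lower and 1 higher. In ectopic expression ovaries 275 lay within 2-fold, 25 lay lower and 0 higher, and 21 of these 25 were also called lower than in control ovaries. Since the Cy3 signal chose the members, these levels are a description.

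A subset of the members fell steeply in ectopic expression ovaries, and none rose by as much. With limma on the deposited log2 ratios, 25 of the 300 members (8.33%) were lower in ectopic expression than in control ovaries at an adjusted p under 0.05 and a fold change of at least 2, against 0.833% of all probes. For the opposite direction the count was 0, against 1.3% of all probes. Without the fold threshold, 41 members (13.7%, against 5.48% of all probes) passed as lower and 21 (7.0%, against 6.4%) as higher. At an unadjusted p under 0.05, 130 members (43.3%) differed in either direction, against 23% of all probes. Of these members, 69 were higher, 0 of them by 2-fold.

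The fallen members formed 2 sets with a gap below them. In the first, 19 probes for 19 identifiers were lower by 5.33- to 38.1-fold. The second held 6 probes for 3 identifiers, with log2 differences between −1.43 and −1.22. The next member in order was 1.64-fold lower and did not pass, and the other 275 members lay between −0.71 and 0.73. Among all probes, 268 were called lower and 91 of them by over 4-fold, so that members, 0.933% of the probes, made up 9.33% of the former and 20.9% of the latter.

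Falls occurred at every brightness within the members. By the mean Cy3 level of all 6 arrays, the 6 bins of 50 ranks held 9, 1, 3, 5, 3 and 4 probes called lower (18%, 2%, 6%, 10%, 6% and 8%). The ectopic expression arrays enter this ranking, and the Cy3 signal of the fallen probes was higher on them than on the control arrays. Ranked by the Cy3 level of the 3 control arrays alone, an alternative added after the data were seen, the bins held 6, 3, 2, 3, 7 and 3 such probes, so no order among the bins is given. Outside the members the share of probes called lower was 3.33% in the 300 ranks that follow, 2.0% in the next 400, 1.45% in the next 2000 and 1.93% in the next 7000. Calls in the other direction were absent among the members under both rankings and made up 0.667%, 0.75%, 0.80% and 2.84% of the same 4 bins. These shares are counts of probes, several of which can report on 1 transcript.

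The probe with the highest mean Cy3 level over the 6 arrays was itself among the fallen, although by the control arrays alone it ranked 9. This probe, A_09_P011441 for transcript FBtr0071424, had log2 ratios of 0.08, −0.30 and 0.00 in control replicates 1, 2 and 3 and of −3.21, −3.14 and −1.51 in ectopic expression replicates 1, 2 and 3. The groups did not overlap, and ectopic expression replicate 3 was the least affected. The difference was −2.55 ± 0.40 (SE; limma, adjusted p = 0.0045). It missed the threshold in 1 of the 19 settings tried, the log ratio of the scanner software (limma, adjusted p = 0.058). Ranked by mean Cy5 level, the probe went from 6 in control to 206 in ectopic expression ovaries.

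A_09_P041776 for FBtr0076574, at rank 5 over all arrays and 18 by the control arrays alone, also fell. Its log2 ratios were 0.34, 0.26 and 0.02 in the control replicates and −4.50, −4.16 and −2.85 in the ectopic expression replicates, a difference of −4.04 ± 0.36 (SE; limma, adjusted p = 0.0003). Its rank by mean Cy5 level went from 8 in control to 675 in ectopic expression ovaries.

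The largest fall belonged to A_09_P030176 for FBtr0080216, whose log2 ratios were −0.79, −0.64 and 0.01 in control and −7.40, −7.24 and −2.54 in ectopic expression ovaries. Ectopic expression replicates 1 and 2 lay together, and replicate 3 lay between them and the control arrays. The fitted difference was −5.25 ± 1.11 (SE; limma, adjusted p = 0.018), and it was −6.85 without ectopic expression replicate 3. Leaving out any other array ended the call, with adjusted p-values from 0.053 to 0.080.

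The next largest fall, in A_09_P010076 for FBtr0071419, came from values of −0.79, −1.69 and −1.33 in control and −6.57, −6.56 and −4.27 in ectopic expression ovaries. Its difference of −4.53 ± 0.56 (SE; limma, adjusted p = 0.0015) held in each of the 19 settings tried. This probe was also the only one of the 19 that was 2-fold below the reference in control ovaries, with a mean log2 ratio of −1.27 ± 0.45 (SD, n = 3).

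Replicates of the ectopic expression group differed in the size of the fall but not in its direction. The median log2 ratio of the 19 strongly fallen members was −0.20, −0.38 and −0.26 in the control replicates and −4.28, −4.21 and −2.35 in the ectopic expression replicates. On the first 2 ectopic expression arrays no member of this set was above −3.14, whereas its control values ran from −1.69 to 0.62, and on the array of replicate 3 the set ran from −4.27 to −1.51. For each of the 25 fallen members, all 3 ectopic expression values lay below all 3 control values of the same probe. This held for 13.1% of all probes, and the calls were made on these same values, so it is a description. Ectopic expression replicate 3 gave the highest ectopic expression value for 19 of the 19 and for 24 of the 25. Below the control mean of the same probe, the median was −4.37, −3.98 and −2.20 in the 3 replicates. The median difference of the 19 probes was −3.65 with all arrays and −4.31 without ectopic expression replicate 3, and all 25 members passed without that array, against 18 to 20 when 1 of the other arrays was left out. The median SD of the fallen members over the ectopic expression arrays was 0.96, against 0.11 for the other members.

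In the 6 probes with smaller falls the median log2 ratio was 0.21, 0.36 and 0.44 in the control replicates and −1.04, −1.45 and −0.22 in the ectopic expression replicates. Replicate 3 was again the least affected by the median, but replicate 2 was the lowest here, and for 1 of the 6 replicate 3 was not the highest. Of these probes, 4 carry the same transcript identifier, and their differences agreed within a narrow range from −1.22 to −1.33, so they count as repeated measurements of 1 transcript. Another of the 6 was the only member 2-fold above the reference in control ovaries, with a mean log2 ratio of 1.26 ± 0.13 (SD, n = 3), and it lay at −0.17 ± 0.54 (SD, n = 3) in ectopic expression ovaries. It was singled out after its values were seen.

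Within slides the picture was the same for the strong falls. From the control to the ectopic expression array of the same slide, 25, 26 and 19 members fell by 2-fold or more on the 3 slides. Of these, 19 did so on every slide, and 0 members rose by 2-fold on any. This rule was counted for the members only, without a share of all probes to set beside it, so the counts are a description. The fallen members passed out of the brightest class: by mean Cy5 level 20 of the 25 were among the 300 brightest probes of control ovaries and 2 of ectopic expression ovaries. The median Cy5 rank of the 19 lay between 133 and 166 in the control replicates and was 4891, 3839 and 483 in the ectopic expression replicates. These Cy5 levels enter the ratios that called the members, so the loss of rank is in part built in.

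Other probes for the same identifiers offer a measurement that the rule did not use. Outside the members, 3 probes belonged to 3 of the fallen identifiers, at Cy3 ranks 390, 1234 and 3406. All 3 were called lower, with differences of −2.32 ± 0.33, −4.76 ± 0.64 and −2.57 ± 0.36 (SE; limma, adjusted p = 0.0029, 0.0022 and 0.0026). In each of them ectopic expression replicate 3 was again the least affected, with log2 ratios of −1.44, −3.23 and −1.68. The identifiers of members that were not called had 99 further probes, and 0 of these were called in either direction.

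The fallen identifiers were often close in number. Of the 18 FlyBase transcript numbers among the 19 strong falls, 10 lay within 5 of another in the set. Among the 194 transcript numbers of members that were not called, 40 (20.6%) lay within 5 of another. This count was made after the identifiers were seen, and the files do not say whether such numbers stand for one gene, for neighbouring genes or for neither.

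The reference channel of the fallen members was not the same on the arrays of the 2 groups, although it held the same RNA. The 25 members carried 2.72, 2.65 and 2.86% of the summed Cy3 signal on the control arrays and 4.16, 3.92 and 3.73% on the ectopic expression arrays. In Cy5 they carried 2.98, 2.67 and 3.13% on the control arrays and 0.492, 0.454 and 1.18% on the ectopic expression arrays. The groups do not overlap in either channel. The 25 were called on the ratio of these channels, so low Cy5 and high Cy3 on the ectopic expression arrays are in part built in. Even for members chosen otherwise, an exact permutation test of 3 arrays against 3 cannot go below p = 0.10.

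Fitted on its own, the Cy3 signal of the 25 was higher on the ectopic expression arrays for all 25, with a median log2 difference of 0.34 (range 0.08 to 0.81), and the groups did not overlap for 18 of them. Cy3 was higher on the ectopic expression arrays for 16673 of all 32162 probes and for 107 of the other 275 members. Of all probes, 1009 had Cy3 groups that did not overlap in this direction. The ratio that called the 25 holds the same Cy3 signal, so these counts are a description. With limma 1 of the 25 passed an adjusted p of 0.05 in Cy3 as higher, against 2 of all 32162 probes. The same difference had a median of −0.02 in the other 275 members and of 0.02 in the 72 probes outside the members that were over 4-fold lower. In those 275 members the Cy3 difference ran from −0.37 to 0.32, so the median covers both signs. Across them the Cy3 and Cy5 differences correlated at r = −0.55, against 0.12 across the 25. Cy5 alone gave a median difference of −3.37 for the 19 strong falls, against −3.65 for the ratio, and called 23 of the 25. Ranking by the Cy3 signal of the control arrays alone kept 24 of the 25 among the members. The ratio therefore takes up a difference in its denominator, and the mean that chose the members takes up the same difference; its source was not tested.

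The other 275 members stayed close to their control level. Their log2 difference had quartiles of −0.09 and 0.23 and a median of 0.11, and 261 of the 300 members lay within 0.5 of 0. The median over all 300 was 0.09, against −0.003 over all probes, but it was −0.02 with the log ratio of the scanner software, so no direction is given for the members as a body. The loess step of the deposited values centres the ratios at each brightness on each array, which leaves little room for a joint shift of the brightest probes. Groups that did not overlap were found for 60 members downward (20.0%, against 13.1% of all probes) and 84 upward (28.0%, against 13.6%).

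The error of the members as a whole was close to that of other probes, but it was larger in some bins of 50 ranks. The SD over replicates had a median of 0.10 in control and 0.13 in ectopic expression ovaries for the members, 0.09 and 0.11 for the 300 ranks after them, and 0.10 and 0.10 for all probes. In ranks 1 to 50 it was 0.18 and 0.16. In ranks 151 to 200 it was 0.09 and 0.18, and in ranks 251 to 300 it was 0.10 and 0.14. Below 2-fold, 37 members passed the p threshold, the smallest difference among them being 0.25. Of these 37, 21 were higher by a median of 0.37 and 16 were lower by a median of −0.46.

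Among the members that passed as higher, the largest difference was in A_09_P012416 for FBtr0076423. Its log2 ratios were −0.57, −0.49 and −0.57 in control and 0.23, 0.23 and 0.13 in ectopic expression ovaries, 2 groups that lie well apart. The difference was 0.73 ± 0.07 (SE; limma, adjusted p = 0.0005), or 1.66-fold. Cy5 alone gave 0.38 (limma, adjusted p = 0.036) and Cy3 alone −0.34, and median centring ended the call at a difference of 0.74 (limma, adjusted p = 0.11). A second member probe for the same identifier, A_09_P165450, had log2 ratios of 0.47, 0.25 and 0.00 in control and of 0.69, 0.43 and 0.17 in ectopic expression ovaries. Its groups overlap, and its difference of 0.19 ± 0.15 (SE; limma, adjusted p = 0.57) did not pass. The rise of this transcript thus rests on 1 of its 2 member probes. Across the 37 identifiers with more than 1 member probe, the range of the difference had a median of 0.08 and exceeded 0.5 for 2.

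Of the identifiers with several member probes, 2 were picked after their values were seen. Transcript FBtr0071897 had 5 member probes, none of which passed, with differences from 0.28 to 0.51. Within control ovaries all 5 were highest in replicate 1 and lowest in replicate 3, from 0.00, −0.28 and −0.55 in A_09_P164250 to 0.59, 0.03 and −0.59 in A_09_P011931. The spread was shared by the probes. On the 3 control arrays, A_09_P164250 had normalized log2 Cy3 levels of 15.34, 15.64 and 15.74 for the common reference. Its Cy5 levels were 16.87, 16.82 and 16.64. In A_09_P011931 the Cy3 levels were 13.60, 13.88 and 14.03, and the Cy5 levels were 15.46, 15.18 and 14.69. Both channels thus differed between these arrays, and the source of the spread was not tested. The cDNA clone LD48059 had 3 member probes, 1 of which differed from the others. A_09_P221060 had log2 ratios of 0.35, 0.32 and −0.21 in control and 0.06, 0.00 and −0.03 in ectopic expression ovaries, and A_09_P203995 had 0.29, 0.26 and −0.07 in control and 0.13, 0.01 and 0.01 in ectopic expression ovaries. For A_09_P051331 they were −1.22, −0.21 and 0.61 in control and −0.58, −0.04 and 0.77 in ectopic expression ovaries, lowest in replicate 1 and highest in replicate 3 of both groups.

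The probe at rank 2 of the reference was low against that reference in both genotypes. A_09_P180530, for the EST cluster TC235712, had a mean Cy3 level of 69152 and Cy5 levels of 1263, 1224 and 2124 scanner units in the control and 1857, 1273 and 2086 in the ectopic expression replicates. Its log2 ratios were −7.13, −6.96 and −6.55 in control and −6.27, −6.26 and −6.30 in ectopic expression ovaries. Both groups were thus far below the reference, more so than any other member. The difference between them was 0.60 ± 0.14 (SE; limma, adjusted p = 0.023) and passed in 9 of the 19 settings tried, with leaving out control replicate 1 or 2 or ectopic expression replicate 1 or 2 each ending the call (limma, adjusted p = 0.072 to 0.098). The difference itself was 0.18 with median centring, 0.30 with loess only and 0.29 with the log ratio of the scanner software, none of which passed. What RNA this cluster stands for is not annotated in the sources used here.

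The probes at ranks 3 and 4 carried identifiers of RefSeq noncoding RNAs. A_09_P052071, for NR_004042, had log2 ratios of −1.19, −1.17 and −1.43 in control and −0.64, −0.66 and −0.93 in ectopic expression ovaries, a difference of 0.52 ± 0.11 (SE; limma, adjusted p = 0.017). It passed in 12 of the 19 settings, and leaving out ectopic expression replicate 1 or 2 ended the call (limma, adjusted p = 0.087 and 0.063). The difference was 0.19 with the log ratio of the scanner software, 0.33 with loess only and 0.33 with Cy5 alone, none of which passed. A_09_P051881, for NR_004022, had no value on either replicate 1 array because its spots were flagged there. Its other values were −0.09 and 0.29 in control and −0.08 and 0.32 in ectopic expression ovaries, so its difference of 0.02 ± 0.18 (SE; limma, adjusted p = 0.97) comes from 2 arrays a group.

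By their median, the members for noncoding RNAs varied between slides more than between groups. Of the 9 members with such an identifier, 0 were called and 1, A_09_P052071, passed the p threshold. That probe went the other way, with a larger difference between groups than between slides. The median log2 ratio of the 9 was taken on each array over those with a value. It was −0.47, −0.26 and 0.26 in the control replicates and −0.23, −0.18 and 0.17 in the ectopic expression replicates. A_09_P144470 for NR_003994, for example, had log2 ratios of −0.47, −0.98 and 0.39 in control and −0.16, −0.18 and 0.52 in ectopic expression ovaries. Both probes for NR_004021 moved alike: A_09_P145625 had −0.46, −0.26 and 0.31 in control and −0.23, −0.19 and 0.21 in ectopic expression ovaries, and A_09_P051876 had −0.43, −0.23 and 0.26 and −0.23, −0.22 and 0.17. In all 3 probes, replicate 3 was above the other replicates of its group. Of the 7 with a value on every array, replicate 3 was the highest of both groups for 4 and the lowest of both groups for 3. Among the members that were not called, it was the highest of both groups for 19.3% and the lowest for 23.7%, against 14.4% and 15% of all probes.

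By the median of these 9 probes, the Cy3 signal relative to its array differed by −0.35 in log2 between slide 3 and the other slides. Their Cy5 signal was higher on slide 3 by a median of 0.11. For the other members that were not called, these medians were −0.01 and 0.02. A_09_P052071 went against the Cy3 median, with a higher normalized Cy3 level on slide 3 than on the other slides in both groups. Slide 3 carried both arrays of replicate 3, and the part that slide or labeling had in these values was not tested. The grouping of these 9 probes and the choice of the 3 given singly were made after their spread was seen.

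The 3 members with a gene name did not pass the test. Vha13, a subunit of the vacuolar proton pump that acidifies intracellular compartments, was measured by the probe of the cDNA clone AT14009 in the last bin of 50 ranks. Its log2 ratios were 0.00, −0.06 and −0.01 in control and 0.00, 0.16 and −0.05 in ectopic expression ovaries, which overlap, and the difference was 0.06 ± 0.08 (SE; limma, adjusted p = 0.77). The long noncoding RNA lncRNA:CR40469 had log2 ratios of 0.32, 0.24 and 0.08 in control and 0.18, 0.55 and −0.19 in ectopic expression ovaries, a difference of −0.03 ± 0.17 (SE; limma, adjusted p = 0.95). For lncRNA:CR34335 the values were −0.01, −0.04 and −0.14 in control and −0.08, 0.29 and −0.54 in ectopic expression ovaries, a difference of −0.05 ± 0.18 (SE; limma, adjusted p = 0.94). Both noncoding RNAs varied more among the ectopic expression replicates (SD 0.37 and 0.41) than among the control replicates (SD 0.12 and 0.07).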

How the data were processed

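RNA from 3 control and 3 ectopic expression ovary preparations was labeled with Cy5 and hybridized against Cy3-labeled OreR ovary RNA, 322 ng per labeling. The scanner intensities of each spot and its local background were deposited by the authors as read by the scanner software, neither corrected nor normalized. The log10 ratios in the same files were deposited as that software computed them, after its own background and dye correction. The authors deposited log2 ratios of Cy5 over Cy3, rounded to 2 decimals, made with normexp background correction (offset not given in the sources used here), loess within arrays and quantile normalization between arrays. Rows of that table were matched to spots by order, and each column correlated with the ratio of its own array at r = 0.9997 to 0.9999 and with that of any other array at 0.938 or less.

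Members were ranked on the scanner intensities. The tests used the deposited log2 ratios: spots flagged as outliers (106 to 123 on each array) were left out, spots of a probe were averaged, and the groups were compared with limma 3.58.1 in R 4.3.3 on all 32162 probes, with Benjamini-Hochberg adjustment over all of them. Calls required an adjusted p under 0.05 together with a change of at least 2-fold. The fit was tested on simulated data. Between 23606 and 33915 spots per array were well above background in Cy5, and 0 were saturated. Precision is limited by the number of arrays.

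Probes described singly were the 5 brightest, every member that matched a gene, and those with the largest fall or rise. Others are said to have been chosen after their values were seen. Genes were named from the RefSeq table of Release 6, and its coordinates were left out since the array follows another build. The members and the gene lists were chosen with earlier results of these data known. Alternatives were a fit from the scanner intensities with normexp offsets of 50 and 0 or without background correction, median centring, loess only, the log ratio of the scanner software, Cy5 alone, flagged spots kept, trended and robust moderation, dim probes left out, a replicate block, leaving out single arrays, spots not averaged, no fold threshold, and other rankings of the members. A fit of Cy3 alone and a count of calls by Cy3 rank on the control arrays were added after the data were seen. Same-numbered arrays share a slide, but their deviations from the group means correlated at 0.25, 0.002 and 0.10 over all probes, so they were not treated as pairs. Over the members alone the correlations were 0.30, 0.31 and 0.25, and the replicate block called the same number of members.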

Additional observations from a re-analysis of the deposited data

How the results depend on the processing

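The count of 25 members called lower was met exactly by 11 of 25 alternatives, was lower in 11 and higher in 3. Without the fold threshold, 41 members passed as lower and 21 as higher, and the 500 brightest probes held 2 called higher. The log ratio of the scanner software called 13 lower, all among the 25, and a normexp offset of 0 called 18; the members lost missed the p threshold, and the cause was not tested. Over all probes, these alternatives called 718 and 597 higher and 396 and 370 lower, against 419 and 268. Leaving out 1 array gave 18 to 25 called lower and 0 called higher. With the replicate block 25 were called lower and 0 higher, as in the fit without it, and no probe described singly changed its call. Over all probes the block called 421 higher and 269 lower. The median log2 difference of the members was 0.09, and it was 0.067 with median centring, 0.062 with loess only, 0.065 with Cy5 alone, −0.021 with the log ratio of the scanner software, 0.10 for the 200 and 0.062 for the 500 brightest probes, 0.10 for members ranked on the control arrays, and 0.065 to 0.105 when 1 array was left out. The difference of A_09_P011441 missed the threshold in 1 of the other settings, and that of A_09_P012416 also in 1. That of A_09_P030176 missed it in 7, that of A_09_P052071 in 7 and that of A_09_P180530 in 10. None of these differences changed direction.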
